A study of Homo sapiens with 6 samples.

Results

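The genes described here are 57 genes of the mitotic spindle, the kinetochore, the spindle checkpoint and cytokinesis, followed in neuroblastoma cells after knockdown of the splicing factor Prp19. They were chosen by function from a fixed list of mitotic kinases, cyclins, motors, kinetochore proteins and cytokinesis proteins, and all 57 were named in the deposited tables, which held 58735 genes. Of these, 56 passed the filter on low values and were tested, among 13718 genes tested in all.

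Levels of mRNA were measured by RNA sequencing (RNA-seq) in SK-N-AS, a human neuroblastoma cell line, transfected either with siPrp19, a small interfering RNA (siRNA) directed at Prp19, or with a control siRNA (NC). Each group held 3 libraries, NCa, NCb and NCc against siPrp19a, siPrp19b and siPrp19c, and both groups were the same parental line with no other treatment named. The labels give 72 h of transfection, whereas the text of the study gives a shorter time. The methods of the study call its replicates biological, but neither they nor the labels say whether the libraries of a group came from separate cultures or transfections, so the p-values measure the spread between these libraries.

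The column heading and the sample under which a table was recorded gave opposite groups for a pair of libraries. The table headed NCb was recorded under an siPrp19 sample, and the table headed siPrp19b was recorded under an NC sample. The tables headed NCc and siPrp19a were recorded under another replicate of their own group. Each heading equals the description of a single sample, and that sample carries the group of the heading. *PRPF19*, the gene encoding Prp19, stood at 83.0, 83.1 and 93.0 FPKM (fragments per kilobase of exon, scaled to the size of the library) in NCa, NCb and NCc and at 19.6, 19.1 and 18.5 FPKM in siPrp19a, siPrp19b and siPrp19c. The targeted gene therefore followed the column headings in each of the 6 libraries, and the difference was −2.12 ± 0.0744 (standard error, SE) on the log2(FPKM + 1) scale (limma, adjusted p = 0.000215). The groups below are those of the column headings. Each main result is also given in the 4 libraries whose heading and recorded sample give the same group (NCa, NCc, siPrp19a and siPrp19c). These are called the libraries with matching labels. Results with the 6 libraries grouped as recorded are given as well.

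Mitosis is driven by cyclin-dependent kinase 1 bound to B-type cyclins, with the Polo and Aurora kinases acting on centrosomes, kinetochores and the spindle. Kinetochores, built on centromeric chromatin, capture microtubules, and unattached kinetochores generate a checkpoint signal that holds back the anaphase-promoting complex (APC/C) until every chromosome is attached. Many of the genes involved are transcribed late in the cell cycle, through a promoter element called the CHR together with CCAAT boxes, and loss of several splicing factors has been linked to mitotic defects in other cells through the splicing of *CDCA5*, which encodes the cohesin protector sororin.

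The promoters of these genes often held the letters of the CHR and CCAAT elements. Members were chosen by function, but these elements are known from late cell cycle genes, so a high share was likely beforehand. Promoter windows from 250 bases before to 50 bases after the start, from RefSeq on GRCh38.p14, were found for 49 of the 57 members. The CHR letters searched were TTTGAA and TTCGAA on both strands, and the other letters were CCAAT on both strands. Of the 49 members, 38 (77.6%) held the CHR letters and 41 (83.7%) held CCAAT in at least 1 window, and 33 (67.3%) held both in the same window. Over all 27305 genes in the table, 19.5% held the CHR letters, 39.7% held CCAAT and 7.85% held both. These genes were not limited to those tested here. Of 35 genes of DNA replication and the G1/S transition with a window, 2 (5.71%) held the CHR letters and 21 held CCAAT. A match is a run of letters and not a mapped binding site.

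The 100 bases before the RefSeq start of 6 members that fell in siPrp19 are shown because they display the arrangement of these letters. Capitals mark the CHR letters and CCAAT on either strand, TTCAAA and ATTGG being their reverse complements, and each sequence reads 5′ to 3′ in the direction of its gene.
CCNB2: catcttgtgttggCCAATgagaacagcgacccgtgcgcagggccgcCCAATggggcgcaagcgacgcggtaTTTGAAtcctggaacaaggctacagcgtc
PLK1: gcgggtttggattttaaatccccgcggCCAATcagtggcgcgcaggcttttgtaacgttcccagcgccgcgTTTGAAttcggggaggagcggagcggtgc
CDCA8: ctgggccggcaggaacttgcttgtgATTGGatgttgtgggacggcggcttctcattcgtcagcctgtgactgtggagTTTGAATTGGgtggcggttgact
ZWINT: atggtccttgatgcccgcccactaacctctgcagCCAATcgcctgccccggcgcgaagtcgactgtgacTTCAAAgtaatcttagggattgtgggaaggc
CDC20: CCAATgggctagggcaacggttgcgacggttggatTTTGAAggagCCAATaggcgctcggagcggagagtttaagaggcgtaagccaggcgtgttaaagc
ANLN: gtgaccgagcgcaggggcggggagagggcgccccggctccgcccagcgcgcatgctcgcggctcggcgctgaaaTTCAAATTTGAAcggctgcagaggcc
They lie on GRCh38.p14 at chr15:59105046-59105145 (plus strand, *CCNB2*), chr16:23678789-23678888 (plus, *PLK1*), chr1:37692416-37692515 (plus, *CDCA8*), chr10:56361260-56361359 (minus, *ZWINT*), chr1:43358881-43358980 (plus, *CDC20*) and chr7:36389762-36389861 (plus, *ANLN*). The CHR letters began 29 bases before the start in both *CCNB2* and *PLK1*, 23 bases before it in *CDCA8*, 31 in *ZWINT* and 65 in *CDC20*. *ANLN* held the letters on both strands side by side, at 26 and 20 bases before the start, and no CCAAT within these 100 bases. In *CDCA8* the CHR letters overlap an ATTGG. The CHR letters were found in 15 of the 21 members called lower that had a window and in 22 of the 27 members tested but not called. The windows of *CCNB1*, *KIF2C*, *CKAP2*, *SGO2*, *SPC24* and *KIF20A*, which fell as well, did not hold these letters.

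Lower levels in siPrp19 were the common pattern of the members. By column heading, 24 of the 56 members tested (42.9%) were lower in siPrp19 at an adjusted p under 0.05 and 0 were higher, where over all genes tested the share called was 7.94%, with 5.37% lower and 2.57% higher (limma, 736 genes lower and 353 higher). No member was higher at an unadjusted p under 0.05 either, and 48 members (85.7%) were lower at that level, as were 14.4% of all genes. The difference was below 0 in 56 of 56 members, against 54.0% of all genes, and its median was −0.39 on the log2(FPKM + 1) scale against −0.02 over all genes. It ran from −0.90 (*ANLN*) to −0.04 (*ESPL1*). The called members were 18.7 to 47.9% lower by mean FPKM, with a median of 30.0%, and 5 of them (8.93% of those tested) passed a 1.5-fold difference on the log2 scale, in the lower direction, where 2.09% of all genes were called and did so. Summed over the 56 members tested, the level was 1360, 1382 and 1346 FPKM in NCa, NCb and NCc and 1082, 992 and 924 FPKM in siPrp19a, siPrp19b and siPrp19c. In bulk RNA, fewer cells in mitosis and less of these transcripts per cell cannot be told apart.

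**Figure D1:**
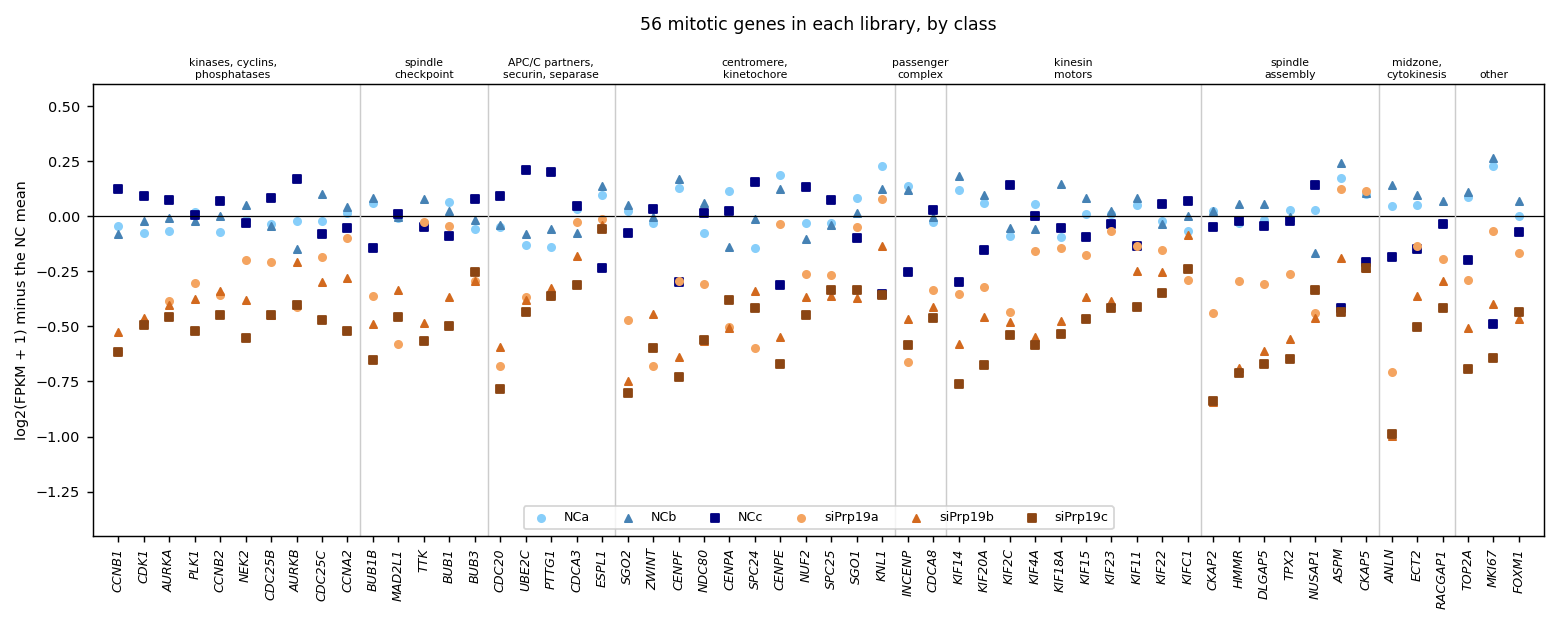
Level of each of the 56 members tested in the 6 libraries, as log2(FPKM + 1) minus the mean of the 3 NC libraries (vertical axis), with genes grouped by class along the horizontal axis. Blue points are NC and orange to brown points siPrp19 libraries; in 44 genes every siPrp19 point lies below every NC point.

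The libraries separated for most members. In 44 of 56 members (78.6%) each siPrp19 library lay below each NC library, where 18.1% of all genes tested did so. The groups overlapped for *BUB1*, *TTK*, *ESPL1*, *CDCA3*, *CENPE*, *CENPF*, *KNL1*, *SGO1*, *ASPM*, *CKAP5*, *ECT2* and *MKI67*. Among the siPrp19 libraries, siPrp19a was the highest for 42 of the 56 genes and siPrp19c the lowest for 39, siPrp19a having a median of 0.23 above the mean of siPrp19b and siPrp19c on the log2(FPKM + 1) scale.

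The direction was kept when the contradicting libraries were left out, but the calls were not. In the 4 libraries with matching labels, the median difference of the members was −0.40. There 55 of 56 lay below 0, where 53.8% of all genes did. An unadjusted p under 0.05 was reached by 28 of 56 members and 12.3% of all genes, but 0 members were called (limma, smallest adjusted p = 0.136) and 0.0146% of all genes were. A weighted fit on recovered reads (limma voom) called 2 members in these 4 libraries, *CDC20* and *ANLN*, where 1.94% of all genes were called. The same fit called 21 members in the 6 libraries, where 9.99% of all genes were called. With the 6 libraries grouped as recorded, each group mixed levels of *PRPF19*. The median was then −0.10 and 46 members lay below 0, where 53.7% of all genes did. In that grouping 0 members and 0.0% of all genes were called (limma). An unadjusted p under 0.05 was reached by 0 members and by 191 genes, 1.39% of all genes. Voom called 0 members in that grouping too.

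**Figure D2:**
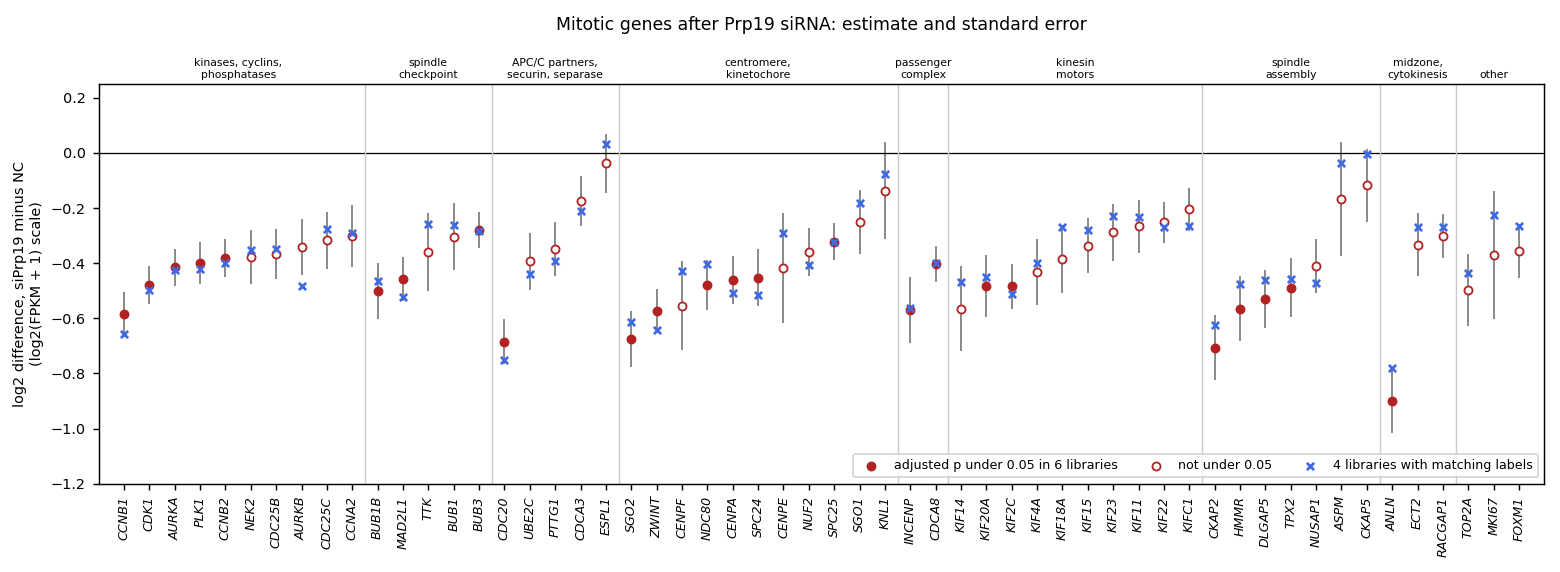
Difference between siPrp19 and NC for each of the 56 members on the log2(FPKM + 1) scale, with bars of 1 standard error from the fit of 6 libraries; filled circles are the 24 genes called and crosses are the estimates from the 4 libraries with matching labels. Each of the 56 circles lies below 0, and 55 of the 56 crosses do.

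Each group held a close pair of libraries, and the number of calls varied with the libraries used. The counts of NCa and NCb differed with a chi-square of 1.67 per degree of freedom (1 being sampling noise) and those of siPrp19b and siPrp19c with 2.45, whereas the other 13 pairs lay between 16.1 and 41.3. Without NCa 4 members were called, without NCb 5, without siPrp19b 5 and without siPrp19c 2, while without NCc the count was 26 and without siPrp19a 31. The share of all genes called moved as well, to 1.92, 2.44, 1.97, 1.84, 9.87 and 7.53% in the same order. With each close pair averaged and counted once, 0 members were called, where 0.0146% of all genes were. Averaging also left fewer values in each group, which was not told apart from the closeness of the pairs. In that fit 53 members lay below 0, where 53.7% of all genes did. An unadjusted p under 0.05 (limma) was reached by 29 of 56 members (51.8%) and 12.4% of all genes. The median difference lay between −0.44 and −0.34 in these fits with 1 library left out.

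Values below are FPKM in the order NCa, NCb, NCc, then siPrp19a, siPrp19b, siPrp19c, and differences are siPrp19 minus NC on the log2(FPKM + 1) scale with SE, from limma across all 13718 genes tested in the 6 libraries. The adjusted p in the 4 libraries exceeded 0.05 for every member. Among 10 mitotic kinases, cyclins and phosphatases, 5 fell and the median difference was −0.38. *CCNB1* (chr5:69167010-69178245, plus strand, GRCh38), the cyclin that activates CDK1 at mitotic entry, stood at 60.5, 59.0 and 68.2, then 40.3, 43.1 and 40.4, a difference of −0.59 ± 0.0809 (adjusted p = 0.00985). *CDK1*, its kinase partner, stood at 35.2, 36.6 and 39.7, then 26.3, 26.6 and 26.0, a difference of −0.48 ± 0.0695 (adjusted p = 0.0111). Both transcripts of the mitotic kinase were lower in every siPrp19 library than in any NC library, and the siPrp19 libraries lay close to each other. *CCNB2*, the other B-type cyclin, stood at 22.4, 23.7 and 24.8, then 18.2, 18.5 and 17.1 (−0.38 ± 0.0694, adjusted p = 0.0219). *AURKA*, the kinase of centrosome maturation, stood at 27.4, 28.6 and 30.2, then 21.7, 21.5 and 20.6 (−0.42 ± 0.0670, adjusted p = 0.0152). *PLK1*, the Polo kinase needed for bipolar spindles, stood at 23.3, 22.6 and 23.0, then 18.4, 17.4 and 15.7 (−0.40 ± 0.0756, adjusted p = 0.0240). These 3 genes showed no overlap between the groups.

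The other 5 genes of the class did not pass. They were *NEK2*, a centrosomal kinase (−0.38, adjusted p = 0.0636), the CDK1-activating phosphatases *CDC25B* (−0.37, adjusted p = 0.0555) and *CDC25C* (−0.32, adjusted p = 0.118), *AURKB*, the passenger-complex kinase (−0.34, adjusted p = 0.0961), and *CCNA2*, the cyclin of S and G2 phase (−0.30, adjusted p = 0.164), all by limma. In each of the 5 genes the siPrp19 libraries lay below the NC libraries without overlap. For *CCNA2* the values were 58.8, 60.0 and 56.1, then 54.3, 47.7 and 40.3, so siPrp19a lay close to NCc.

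Of the 5 spindle checkpoint genes, 3 fell. *MAD2L1* encodes the MAD2 protein that inhibits CDC20, and stood at 28.9, 28.9 and 29.3, then 19.1, 22.8 and 20.9, a difference of −0.46 ± 0.0791 (adjusted p = 0.0189). *BUB1B* encodes BUBR1, another part of the inhibitory complex, and stood at 19.9, 20.2 and 17.1, then 14.6, 13.2 and 11.7 (−0.50 ± 0.102, adjusted p = 0.0309). *BUB3*, which docks the BUB proteins on the kinetochore, stood at 18.6, 19.2 and 20.6, then 15.7, 15.7 and 16.1 (−0.28 ± 0.0651, adjusted p = 0.0468). The *BUB3* difference was the smallest of the 24 called and lay near the threshold. *BUB1*, the checkpoint kinase, stood at 16.4, 16.0 and 14.7, then 15.1, 11.9 and 10.8 (−0.30 ± 0.121, adjusted p = 0.188). *TTK*, the kinase that starts the signal, stood at 8.12, 8.83 and 8.01, then 8.14, 5.66 and 5.28 (−0.36 ± 0.143, adjusted p = 0.185). In both kinases siPrp19a reached into the NC range, whereas siPrp19b and siPrp19c lay below it.

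*CDC20* (chr1:43358955-43363203, plus strand), the APC/C activator that the checkpoint restrains, had the smallest adjusted p of the members. It stood at 67.1, 67.4 and 73.9, then 42.9, 45.7 and 39.8, which is 69.4 ± 3.85 against 42.8 ± 2.93 FPKM (SD, n = 3 each). The difference was −0.69 ± 0.0817 (limma, adjusted p = 0.00649), and −0.75 in the 4 libraries (limma, adjusted p = 0.136). *CDC20* and *ANLN* were called in each of the 6 fits with 1 library left out. The remaining genes around the APC/C were not called. *UBE2C*, its ubiquitin-conjugating enzyme and the most abundant member, stood at 77.0, 79.8 and 97.6, then 65.3, 64.5 and 62.1 (−0.39 ± 0.103, limma, adjusted p = 0.0664). *PTTG1*, encoding securin, stood at 34.0, 36.1 and 43.4, then 29.1, 29.9 and 29.1 (−0.35 ± 0.0975, adjusted p = 0.0791). NCc was well above NCa and NCb in both, and the groups did not overlap. *CDCA3*, which triggers degradation of WEE1, and *ESPL1*, encoding separase, differed by −0.17 (adjusted p = 0.301) and −0.04 (adjusted p = 0.868), and their groups overlapped.

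Of the 11 centromere and kinetochore genes, 6 fell, with a median difference of −0.45 for the class. *SGO2*, which protects centromeric cohesin, stood at 9.60, 9.79 and 8.88, then 6.51, 5.20 and 4.97, a difference of −0.67 ± 0.101 (adjusted p = 0.0123). *ZWINT*, a docking protein of the outer kinetochore, stood at 42.0, 42.8 and 44.0, then 26.4, 31.3 and 28.0 (−0.57 ± 0.0802, adjusted p = 0.0102). *CENPA*, the centromeric histone H3 variant, stood at 11.2, 9.23 and 10.4, then 6.96, 6.94 and 7.66 (−0.46 ± 0.0860, adjusted p = 0.0232). In all 3 genes the highest siPrp19 library stayed well below the lowest NC library.

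The NDC80 complex, which binds the microtubule directly and is made of 4 subunits, had 3 subunits called. *NDC80* stood at 10.3, 11.4 and 11.1, then 8.65, 7.05 and 7.09 (−0.48 ± 0.0914, adjusted p = 0.0250). *SPC24* stood at 11.5, 12.7 and 14.4, then 8.09, 9.88 and 9.31 (−0.45 ± 0.105, adjusted p = 0.0463), and *SPC25* at 11.0, 10.9 and 11.9, then 9.18, 8.52 and 8.72 (−0.32 ± 0.0671, adjusted p = 0.0336). The remaining subunit gene *NUF2* stood at 18.4, 17.4 and 20.7, then 15.5, 14.3 and 13.5 (−0.36 ± 0.0877, adjusted p = 0.0541), so it missed the threshold while its groups did not overlap. The other kinetochore genes not called were the large coiled-coil proteins *CENPF* (−0.56, adjusted p = 0.0879) and *CENPE* (−0.42, adjusted p = 0.260), the cohesin protector *SGO1* (−0.25, adjusted p = 0.250) and the checkpoint scaffold *KNL1* (−0.14, adjusted p = 0.694). All 4 had overlapping groups. In *CENPF*, NCc stood at 25.8 FPKM against 35.0 and 36.0 FPKM in NCa and NCb, level with siPrp19a at 25.8 FPKM.

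Of the chromosomal passenger genes among the members, *INCENP* and *CDCA8* fell, and *AURKB*, counted with the kinases above, was not called. *INCENP*, the scaffold of the complex that corrects faulty attachments, stood at 23.7, 23.4 and 17.9, then 13.2, 15.3 and 14.0 (−0.57 ± 0.119, adjusted p = 0.0338). *CDCA8*, encoding borealin, stood at 22.7, 23.1 and 23.6, then 18.2, 17.1 and 16.6 (−0.40 ± 0.0646, adjusted p = 0.0151). NCc was the lowest NC library for *INCENP* but not for *CDCA8*. *BIRC5*, encoding survivin, the further subunit of this complex and not a member, stood at 62.8, 60.4 and 71.2, then 28.8, 36.4 and 35.5 (−0.93 ± 0.112, adjusted p = 0.00668). The *BIRC5* estimate lay beyond that of *ANLN*, the member with the largest difference, by less than its SE.

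Of the 10 kinesin motors, 2 fell. *KIF2C*, the microtubule depolymerase of the centromere, stood at 22.0, 22.6 and 26.0, then 17.1, 16.6 and 15.9 (−0.48 ± 0.0821, adjusted p = 0.0181). *KIF20A*, a motor of the central spindle, stood at 24.8, 25.5 and 21.3, then 18.8, 17.1 and 14.5 (−0.48 ± 0.113, adjusted p = 0.0477). Neither gene overlapped between groups. The 8 motors not called also showed no overlap, although for *KIF11* both NCc and siPrp19a rounded to 18.6 FPKM. They ran from −0.56 for *KIF14*, a cytokinesis motor (adjusted p = 0.0753), through the chromokinesin *KIF4A* (−0.43, adjusted p = 0.0781), *KIF18A*, which limits chromosome oscillation (−0.39, adjusted p = 0.113), *KIF15*, which helps to keep the spindle bipolar (−0.34, adjusted p = 0.0912), the centralspindlin motor *KIF23* (−0.29, adjusted p = 0.144), *KIF11*, which separates the spindle poles (−0.27, adjusted p = 0.155), and the chromokinesin *KIF22* (−0.25, adjusted p = 0.0903), to −0.20 for the minus-end motor *KIFC1* (adjusted p = 0.176).

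Of the 7 spindle assembly and microtubule-binding genes, 4 fell. *CKAP2*, a spindle-pole protein, stood at 22.7, 22.7 and 21.5, then 16.2, 12.0 and 12.0, a difference of −0.71 ± 0.118 (adjusted p = 0.0169). *HMMR*, which positions the spindle, stood at 19.1, 20.4 and 19.3, then 15.8, 11.8 and 11.6 (−0.56 ± 0.119, adjusted p = 0.0345). *DLGAP5*, a stabilizer of kinetochore fibres, stood at 16.2, 17.1 and 15.9, then 13.1, 10.4 and 9.95 (−0.53 ± 0.104, adjusted p = 0.0276). In all 3 genes siPrp19a lay between the NC libraries and the other siPrp19 libraries. *TPX2*, the activator of Aurora A, showed the same order, at 66.3, 64.9 and 64.0, then 54.1, 43.9 and 41.1 (−0.49 ± 0.108, adjusted p = 0.0403). *NUSAP1*, a bundling protein, had a difference of −0.41 (adjusted p = 0.0520). For *ASPM*, a spindle-pole protein, the values were 15.6, 16.4 and 10.0, then 15.0, 11.9 and 9.86 (−0.17, adjusted p = 0.682), and for *CKAP5*, a microtubule polymerase, 39.6, 39.8 and 31.7, then 40.1, 31.2 and 31.2 (−0.12, adjusted p = 0.651). The groups of both overlapped, with NCc at the level of the lower siPrp19 libraries and, for *CKAP5*, siPrp19a at that of NCa.

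*ANLN* (chr7:36389806-36453791, plus strand), encoding the contractile-ring scaffold anillin, had the largest difference of the members. It stood at 30.9, 33.0 and 26.2, then 17.9, 14.5 and 14.6, which is 30.0 ± 3.50 against 15.6 ± 1.97 FPKM (SD, n = 3 each) and 47.9% lower. The difference was −0.90 ± 0.117 (limma, adjusted p = 0.00845), and −0.78 in the 4 libraries (limma, adjusted p = 0.147). The centralspindlin partner *RACGAP1* (−0.30, adjusted p = 0.0680) and *ECT2*, the exchange factor that activates RhoA at the midzone (−0.33, adjusted p = 0.132), were not called. *PRC1*, which bundles midzone microtubules, was listed at 0.320, 0.454 and 0.358, then 0.355, 0.472 and 0.310 FPKM, from 28 to 43 reads a library, and fell under the filter of a mean of 1 FPKM. Of the exon bases of *PRC1*, 57.6% also belong to another gene on the same strand, and of *NUSAP1* 62.2%, so how their reads were shared between genes is uncertain.

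None of the 3 remaining members was called. *TOP2A*, the topoisomerase that untangles sister chromatids, stood at 79.5, 80.9 and 65.1, then 61.0, 52.3 and 45.9, a difference of −0.50 ± 0.131 (adjusted p = 0.0675). *FOXM1*, a transcription factor of late cell cycle genes, stood at 24.3, 25.6 and 23.1, then 21.6, 17.3 and 17.7 (−0.36 ± 0.0972, adjusted p = 0.0745). *MKI67*, encoding the proliferation marker Ki-67, stood at 25.1, 25.8 and 14.9, then 20.3, 16.0 and 13.3 (−0.37 ± 0.231, adjusted p = 0.390). The groups did not overlap for *TOP2A* and *FOXM1*, while for *MKI67* NCc was lower than both siPrp19a and siPrp19b.

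The low NCc values belonged mostly to long transcripts. Across the 56 members, the level in NCc minus the mean of NCa and NCb went down with log2 merged exon length (Pearson r = −0.80, Spearman rho = −0.74, across genes, which share libraries and are not independent), and over all genes tested r was −0.15 and rho −0.40. The level in siPrp19a minus the mean of siPrp19b and siPrp19c went the other way across the members (r = 0.56, rho = 0.58, against 0.16 and 0.23 over all genes), while NCb minus NCa showed little relation (r = 0.08). In the 14 members with exons under 3000 bases the median NCc shift was 0.12 and 9 were called, in the 24 from 3000 to 5000 bases it was −0.05 and 11 were called, and in the 18 of 5000 bases or more it was −0.29 and 4 were called. The median difference between groups in these bins was −0.41, −0.39 and −0.33. The share of all genes called in the same bins was not computed. When GC content and exon length were corrected for in each library, an alternative added after the data were seen, 35 members were called (limma), where 13.1% of all genes were, and the median was −0.38.

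**Figure D3:**
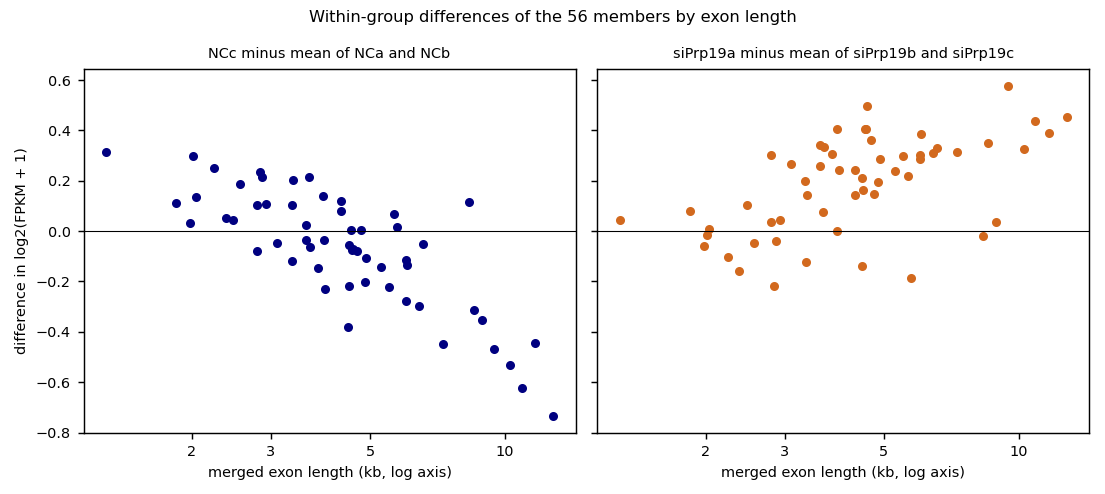
Difference between libraries of the same group for each of the 56 members, in log2(FPKM + 1), against merged exon length in kilobases on a log axis: left, NCc minus the mean of NCa and NCb; right, siPrp19a minus the mean of siPrp19b and siPrp19c. The left points go down with length (r = −0.80) and the right points go up (r = 0.56).

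The members were compared with other genes of mitosis and with genes of DNA replication. Of 131 other mitotic genes tested, 15 were lower and 1 was higher (limma), 115 lay below 0 and the median difference was −0.16. Of 41 genes of DNA replication and the G1/S transition, 8 were lower, 0 were higher, 36 lay below 0 and the median was −0.22. The members' share called lower, 42.9%, thus stood beside 11.5% and 19.5% in these lists and 5.37% of all genes, with no test of the difference between lists.

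**Figure D4:**
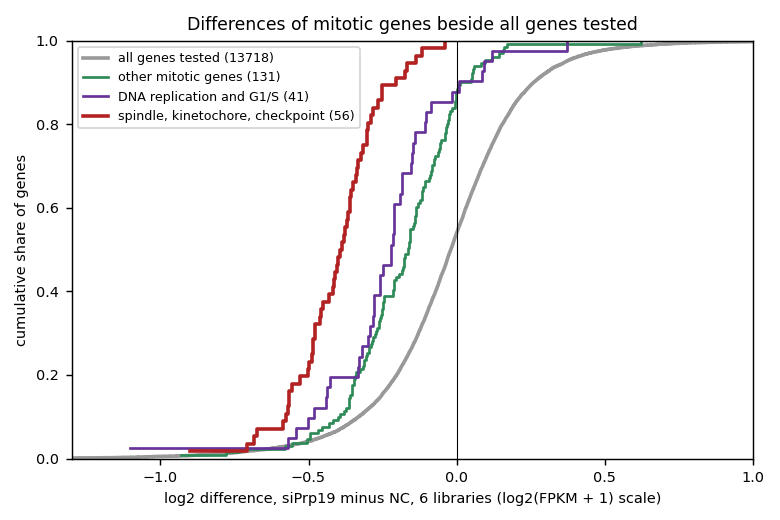
Cumulative share of genes (vertical axis) by difference between siPrp19 and NC in the 6 libraries on the log2(FPKM + 1) scale, for the 56 members, 131 other mitotic genes, 41 genes of DNA replication and G1/S and all 13718 genes tested. The curve of the members lies to the left of the others over most of its range, with a median of −0.39 against −0.16, −0.22 and −0.02.

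Among the inner kinetochore, MIS12 and SKA genes, 6 of 23 tested were lower. *CENPM* of the inner kinetochore stood at 5.58, 5.15 and 5.26, then 2.46, 2.90 and 3.08 (−0.73 ± 0.0861, adjusted p = 0.00619), and *SKA1* and *SKA3*, which couple kinetochores to microtubules, both differed by −0.50 (adjusted p = 0.00943 and 0.0245). The checkpoint and passenger partners had 1 of 11 lower, which was *BIRC5*. Of 18 condensin and cohesin genes 1 was lower, *RAD21*, the cleavable cohesin subunit, at −0.35 (adjusted p = 0.0348), and 0 were higher. *CDCA5*, encoding sororin, stood at 25.4, 25.4 and 29.3, then 20.5, 23.3 and 22.3 (−0.26 ± 0.0851, limma, adjusted p = 0.116), so its groups did not overlap but it was not called. FPKM per gene do not show whether an intron was retained, and splicing of *CDCA5* or of any member was not tested.

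None of 17 genes of the APC/C list was called (limma), and their median was −0.13. The list held APC/C subunits together with the co-activator *FZR1*, the ubiquitin-conjugating enzyme *UBE2S* and the inhibitor *FBXO5*. In the list of centrosome, augmin and gamma-tubulin genes 2 of 24 were lower, *PLK4*, the kinase of centriole duplication (−0.58, adjusted p = 0.0239), and *TUBGCP3*, a gamma-tubulin complex subunit (−0.36, adjusted p = 0.0332). The regulators of mitotic entry and exit had 3 of 19 lower, namely *CKS2*, a CDK-binding protein (−0.78, adjusted p = 0.0415), the mitotic kinases *PBK* (−0.45, adjusted p = 0.0141) and *MELK* (−0.42, adjusted p = 0.0125). Of 19 genes that control transcription of cell cycle genes, *MYBL2*, a late cell cycle activator (−0.34, adjusted p = 0.0448), and *RBBP4*, a subunit of the DREAM repressor complex (−0.31, adjusted p = 0.0309) were lower. *CDKN1A*, encoding the CDK inhibitor p21, stood at 15.1, 14.9 and 16.0, then 20.4, 24.6 and 27.9 and was the gene called higher (0.62 ± 0.113, adjusted p = 0.0216). Its 3 siPrp19 libraries lay above the 3 NC libraries. In the 4 libraries none of the genes in these lists was called (limma).

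The libraries held 14887132 to 19977811 recovered reads, and each tested member rested on 104 to 8107 reads in a library, with a median mean level of 17.7 FPKM against 6.27 FPKM over all genes tested. Mitochondrial genes took 8.29% of reads in siPrp19a and 5.15 to 5.49% in the others. Rescaling to the FPKM outside the mitochondria moved the median of all genes to 0.07 and left 10 members called, with 55 of 56 below 0 and a median of −0.29. Over all genes it turned the calls to 387 lower and 545 higher, quantile normalization gave 586 lower and 501 higher, and voom gave 623 lower and 747 higher. *ESPL1* was the member above 0 under each of these scalings. The 9 members *ANLN*, *AURKA*, *CCNB1*, *CDC20*, *CDK1*, *KIF2C*, *MAD2L1*, *SGO2* and *ZWINT* were called in each of the 10 fits that used the 6 libraries as separate replicates. Fit by fit, the share of all genes called ran from 1.49% (no filter on low values) to 13.1% (GC and length correction). The share of all genes called in all 10 fits at once was not computed. Such fits count the close pairs as separate libraries, and with those pairs averaged 0 members were called.

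**Figure D5:**
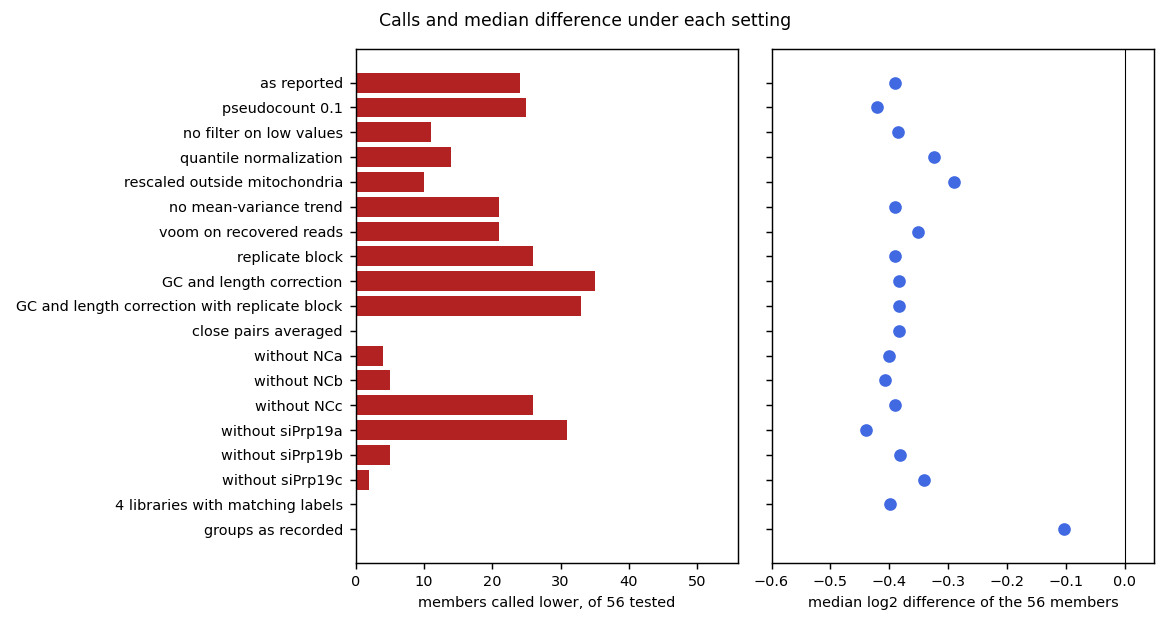
Number of members called lower of 56 tested (bars, left) and median difference of the 56 members on a log2 scale (points, right) in the fit of 6 libraries as reported, under each alternative, in the 4 libraries with matching labels and with the groups as recorded. The count runs from 0 to 35, whereas the median stays between −0.44 and −0.29 except for the groups as recorded, where it is −0.10.

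Markers of the line were checked beside these results. The adrenergic neuroblastoma markers *PHOX2A*, *HAND2*, *GATA3*, *ISL1* and *DBH* were above 6 FPKM in each library and *TH* stood at 0.312 to 0.662 FPKM. The 5 mesenchymal markers *VIM*, *FN1*, *PRRX1*, *YAP1* and *CD44* were above 7 FPKM in each library. Of 9 markers of epithelial, blood, endothelial and muscle cells, 8 stayed under 1 FPKM, *CD3E* and *CDH5* being listed at 0 in each library. The exception was *PTPRC*, which encodes CD45 of blood cells, at 16.9 to 30.7 FPKM and −0.63 ± 0.111 (limma, adjusted p = 0.0202). Its part in the lower levels of the mitotic genes was not tested.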

How the data were processed

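The 57 members, the other gene lists and the tests were chosen with earlier results of these data known. The authors deposited 1 table of FPKM per library, and the submitters' processing notes name HISAT2 2.0.5, featureCounts 1.5.0-p3 and the build hg38. Whether the counting used strand is not given in the sources used here, and 20 tested members share 0.149 to 17.7% of their exon bases with a gene on the opposite strand. The deposited FPKM multiplied by GENCODE 29 merged exon length gave whole multiples of 1 read for 100% of values (tolerance 0.05), from which reads were recovered. Symbols came from a current gene table for 58207 identifiers and from GENCODE for 528. Genes with a mean of at least 1 FPKM over the 6 libraries were fitted as log2(FPKM + 1) with limma 3.58.1 in R 4.3.3 (mean-variance trend, moderated test, Benjamini-Hochberg adjustment over all genes, threshold 0.05). FPKM are not counts, so a count model was used only as the alternative voom fit. The log2 differences understate changes of low genes. The method was tested on simulated data in which libraries varied independently. Those data held no close pairs and no shifts with exon length, so the simulation cannot speak to these features. Groups followed the column headings, and the 4 libraries with matching labels and the recorded groups were fitted alongside. Named genes were the called members with the largest differences, at most 25 of them, the members under the filter, preset cell cycle genes, the most abundant member of a class with no call, and up to 3 called genes of each further list with *CDCA5*. The other members were named to account for all 57. Coordinates of genes are those of GENCODE 29 on GRCh38. Alternatives covered the pseudocount, the filter, scaling, the trend, voom, a replicate block and each library left out. Intervals for counting error were not computed, since the replicate spread was larger for most pairs. The result of 1 marker gene is not reported here.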

Additional observations from a re-analysis of the deposited data

How the results depend on the processing

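The direction of the members held more widely than their calls. Of 1120 values recomputed for 70 named genes, 8 changed sign, 244 lost the call, 45 gained it and 823 did neither. *PRPF19* stayed called in each alternative (−2.17 to −2.01).

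By column heading, the 1089 genes and 24 members called became 512 and 11 with no filter on low values (34468 genes tested), and 2 and 0 with the close pairs averaged. With quantile normalization 14 members were called, where 7.92% of all genes were. Rescaling outside the mitochondria called 10 members, where 6.79% of all genes were called. The GC and length correction called 1796 genes and 35 members. Leaving out 1 library gave 253 to 1354 genes (lowest without siPrp19c, highest without NCc) and 2 to 31 members (lowest without siPrp19c, highest without siPrp19a). In the 4 libraries, the 2 genes called became 0 with no filter and 266 with voom, which called 2 members in place of 0, and leaving out 1 library gave 0 to 70 genes (70 without siPrp19c) and 0 members, a lone library being assumed to vary like the other group. The causes were not tested.

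*ESPL1* was above 0 with quantile normalization (0.0106), rescaling (0.0593), voom (0.0374) and close pairs averaged (0.0267), and ran from −0.156 (without NCc) to 0.0304 (without NCb) with 1 library left out. With the close pairs averaged *KNL1* and *ASPM* stood at 0.00735 and 0.0115.

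Libraries with the same letter shared little deviation (r = 0.13, −0.05 and 0.20 for a, b and c), so the letters were not taken to pair samples. With the replicate block 928 genes and 26 members were called by column heading, and with the block and the GC and length correction 1421 and 33. As recorded, the block called 0 genes and 0 members. These alternatives of correction and averaging were chosen after seeing the data. With 3 libraries a group and close pairs within them, small differences could not be resolved.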
